A study of Mus musculus with 16 samples.

Results

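Odorant receptor trafficking factors and receptor choice factors were followed across sorted olfactory cells of mice given cigarette smoke odour or clean air. The group held 9 of the 19505 genes measured on the arrays. Rtp1, Rtp2 and Reep1 were the 3 trafficking factors, and Lhx2, Ldb1, Ebf1, Emx2, Kdm1a and Lbr were the 6 choice factors. Each gene was taken by its symbol, and each had a single probe set on the array.

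All animals were S100a5-tauGFP mice, in which a green fluorescent protein (GFP) reporter is tied to S100a5, whose product binds calcium and whose level in olfactory neurons tracks their recent activity. The 24 mice, of both sexes and 7 to 12 weeks old, made up 8 pools of 3. Each mouse spent 40 h in a clean air chamber, and from 26 h on it received a pulse of 10 s every 20 min. Smoke pools (n = 4) received pulses of cigarette smoke odour, and vehicle pools (n = 4) received pulses of filtered air. Olfactory mucosa was dissociated and sorted, and the 4 groups were smoke GFP+, smoke GFP-, vehicle GFP+ and vehicle GFP- with 4 arrays each. That each pool gave both a GFP+ array and a GFP- array was inferred from the number of mice. The series design text names bourgeonal as the odour, while its title and every sample label give cigarette smoke, which is used here. Replicates are pools of mice, so the statistics describe the spread between pools and not between single animals.

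A mature olfactory neuron usually transcribes a single odorant receptor gene out of a very large family. The choice is made as a precursor matures: receptor loci are packed into heterochromatin, distant enhancers bound by LHX2, its cofactor LDB1 and EBF proteins gather around a chosen locus, and the demethylase KDM1A is needed for the first receptor to be switched on. The receptor protein then starts a feedback signal that holds the choice, and RTP1 and RTP2 carry it out of the endoplasmic reticulum to the cilia. EMX2 is a homeodomain factor needed for normal expression of many receptors. LBR, the lamin B receptor, ties heterochromatin to the nuclear envelope, is lost as olfactory neurons mature so that receptor loci can gather in the nuclear interior, and is also known for shaping the nuclei of neutrophils.

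Promoter sequences were available from RefSeq (GRCm38.p6) for 8 of the 9 genes, in 12 windows, with Rtp1 not among them. The 250 bases before the start of transcription are printed for Rtp2, whose window holds the letters of an EBF binding core, and for Lbr, whose window holds none and whose values differed most between the sorted fractions. Both genes lie on the minus strand, the Rtp2 window at chr16:23930795-23931044 and the Lbr window at chr1:181842402-181842651. Each window lies outside the annotated span of its own gene, and overlap with other genes was not checked. Capitals mark the EBF core.
Rtp2: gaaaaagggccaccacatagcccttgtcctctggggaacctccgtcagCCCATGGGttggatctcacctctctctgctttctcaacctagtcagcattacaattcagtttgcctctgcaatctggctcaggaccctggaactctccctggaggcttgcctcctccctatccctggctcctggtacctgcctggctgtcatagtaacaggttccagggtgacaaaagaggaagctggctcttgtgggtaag
Lbr: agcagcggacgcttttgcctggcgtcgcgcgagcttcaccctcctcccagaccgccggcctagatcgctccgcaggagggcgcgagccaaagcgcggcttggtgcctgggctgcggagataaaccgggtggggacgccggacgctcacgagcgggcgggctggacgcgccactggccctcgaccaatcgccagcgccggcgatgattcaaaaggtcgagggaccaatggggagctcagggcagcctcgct
The core was searched as CCCNNGGG on both strands, and 11.8% of all 32851 promoter windows of this length hold it. It was found in Rtp2 (CCCATGGG, starting 202 bases before the transcription start), in Reep1 (CCCTGGGG, 65 bases before) and in 1 of the 3 windows of Ldb1 (CCCTGGGG, 47 bases before). The Reep1 window and that Ldb1 window lie wholly inside an annotated gene. The homeodomain core TAATTA, in 4.84% of all windows, was in none of the 12. The looser TAATNA, which includes it and occurs in 24.3%, was in the window of Kdm1a alone. The Lbr window had 69.6% G and C and the Rtp2 window 54.8%, against a median of 52.4% over all windows. A match describes letters in this window and says nothing of binding.

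Values are the deposited log2 array values. Array medians over all genes were 7.87 to 7.96 for the GFP+ fraction and 8.19 to 8.29 for the GFP- fraction. Arrays of a group correlated at 0.988 to 0.995 across genes. Vomeronasal receptors belong to another organ, and their 95th percentile, 6.14 to 6.78 per array, served as a low level, and all 9 factors lay above it in all 4 groups. A 16-bit scanner reaches 16 on the log2 scale, and Rtp1 exceeded this on all 16 arrays and Ebf1 on 15 of them, so the sizes of their differences are uncertain. The mature neuron markers were high in both fractions, with list means of 15.8 to 15.9 on GFP+ arrays and 15.4 to 15.6 on GFP- arrays (10 genes). In bulk samples such as these, fewer cells of a type and less RNA per cell cannot be told apart.

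In the fit without pools as blocks, the sort separated 3 of the 9 factors by the test, and the smoke exposure separated none. Rtp2 and Reep1 were higher in GFP+ than in GFP- cells of both exposures, and Lbr was far lower. In vehicle mice these 3 passed at an adjusted p of at most 0.05 (limma, Benjamini-Hochberg over all genes), against 39.6% of all genes, with 24.2% higher and 15.4% lower. In smoke mice the same 3 passed, against 32.7% of all genes, with 18.3% higher and 14.4% lower. The count of members called therefore lay near the share of all genes called. With the pool as a block, 5 of 9 passed in vehicle mice, Ebf1 and Emx2 included (7921 of all genes). In smoke mice 3 of 9 passed with that block (6465 genes). With each array centred on its median, 8 of 9 passed in vehicle mice (15086 genes) and 7 of 9 in smoke mice (14268 genes). All genes together were shifted upwards by a median of 0.17 in vehicle and 0.15 in smoke mice, and the members had medians of 0.21 and 0.08. Of the genes called in vehicle mice 61.2% were higher, and this share became 85.0% when each array was centred on its median (56.1% and 85.3% in smoke mice).

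**Figure D1:**
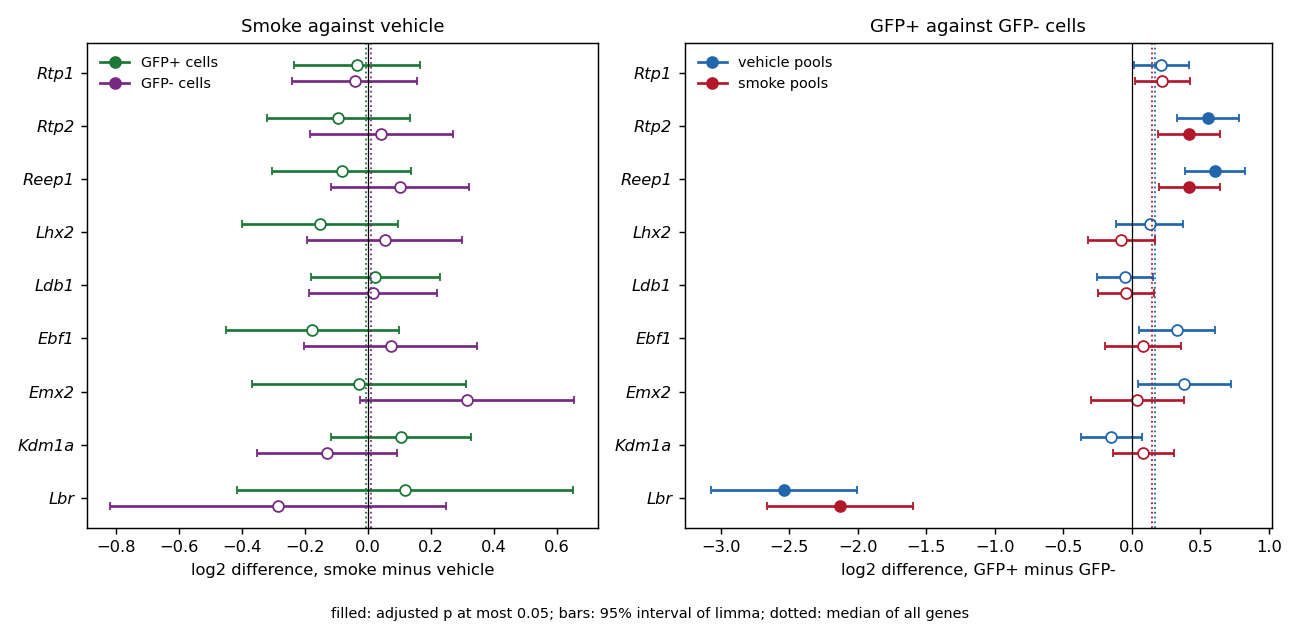
Log2 differences of the 9 factors (points) with 95% limma intervals (bars), smoke minus vehicle on the left and GFP+ minus GFP- on the right, with filled points for an adjusted p of at most 0.05 and dotted lines at the median of all genes. The filled points are Rtp2, Reep1 and Lbr in both sort comparisons, and all smoke intervals cross 0.

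Rtp2, a receptor transporting protein of the olfactory epithelium, was higher in GFP+ cells. It measured 15.78, 15.78, 15.89 and 15.88 in vehicle GFP+ replicates 1 to 4 and 15.35, 15.33, 15.09 and 15.34 in vehicle GFP- cells. In smoke mice it measured 15.71, 15.81, 15.90 and 15.54 in GFP+ cells and 15.42, 15.22, 15.19 and 15.46 in GFP- cells. Every GFP+ array lay above every GFP- array of its exposure, with the narrowest gap at replicate 4 of the smoke pools. The difference was 0.55 in vehicle mice (SE 0.11, n = 4, 1.47-fold, adjusted p = 6.43e-04) and 0.42 in smoke mice (SE 0.11, n = 4, 1.34-fold, adjusted p = 0.00695). Relative to the shift of all genes it was 0.39 and 0.27. Within pools the difference ran from 0.43 to 0.80 in vehicle and from 0.09 to 0.71 in smoke pools.

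Reep1, a membrane protein of the endoplasmic reticulum that raises receptor display on the surface of cultured cells, showed the same order of groups. It measured 13.55, 13.69, 13.44 and 13.51 in vehicle GFP+ cells against 13.04, 12.97, 12.94 and 12.81 in vehicle GFP- cells. In smoke mice the values were 13.44, 13.33, 13.55 and 13.52 in GFP+ cells and 13.25, 12.93, 12.94 and 13.05 in GFP- cells. The fractions did not overlap in either exposure, and smoke GFP- replicate 1 lay closest to the GFP+ range. The difference was 0.61 in vehicle mice (SE 0.10, 1.52-fold, adjusted p = 2.02e-04) and 0.42 in smoke mice (SE 0.10, 1.34-fold, adjusted p = 0.00529), or 0.44 and 0.27 above the shift of all genes. Without smoke pools 2 and 4, Reep1 lost its call in smoke mice, at 0.40 (SE 0.15, adjusted p = 0.0944). On these fewer arrays 3579 of all genes were called in smoke mice, against 6373 on all arrays. Pools 2 and 4 had the most sustentacular signal in GFP+ cells of the smoke pools. Sustentacular list means (9 genes) were 12.46 and 12.04 in GFP+ replicates 4 and 2 of the smoke pools against 11.46 to 11.54 in replicates 3 and 1, and their part in the result was not tested.

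Rtp1, the best known of the receptor transporters, did not pass in either exposure. Its values were 16.97, 17.01, 17.07 and 17.03 in vehicle GFP+ cells and 16.91, 16.83, 16.74 and 16.75 in vehicle GFP- cells. In smoke mice they were 17.001, 17.02, 17.03 and 16.89 in GFP+ cells and 16.88, 16.61, 16.68 and 16.89 in GFP- cells. The fractions were narrowly apart in both exposures, as for 39% of all genes in vehicle and 29.8% in smoke mice. The difference was 0.21 in vehicle and 0.22 in smoke mice (SE 0.09 and adjusted p = 0.0826 each), which is 0.05 and 0.07 above the shift of all genes. It passed in both exposures where genes at low values were left out (adjusted p = 0.0484 and 0.0488) and in limma with a trended, robust spread (adjusted p = 0.0138 and 0.0136), while quantile normalization of the arrays lowered the difference to 0.03 and 0.10. With every value above the scanner ceiling, these values do not show that Rtp1 was equal in both fractions.

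**Figure D2:**
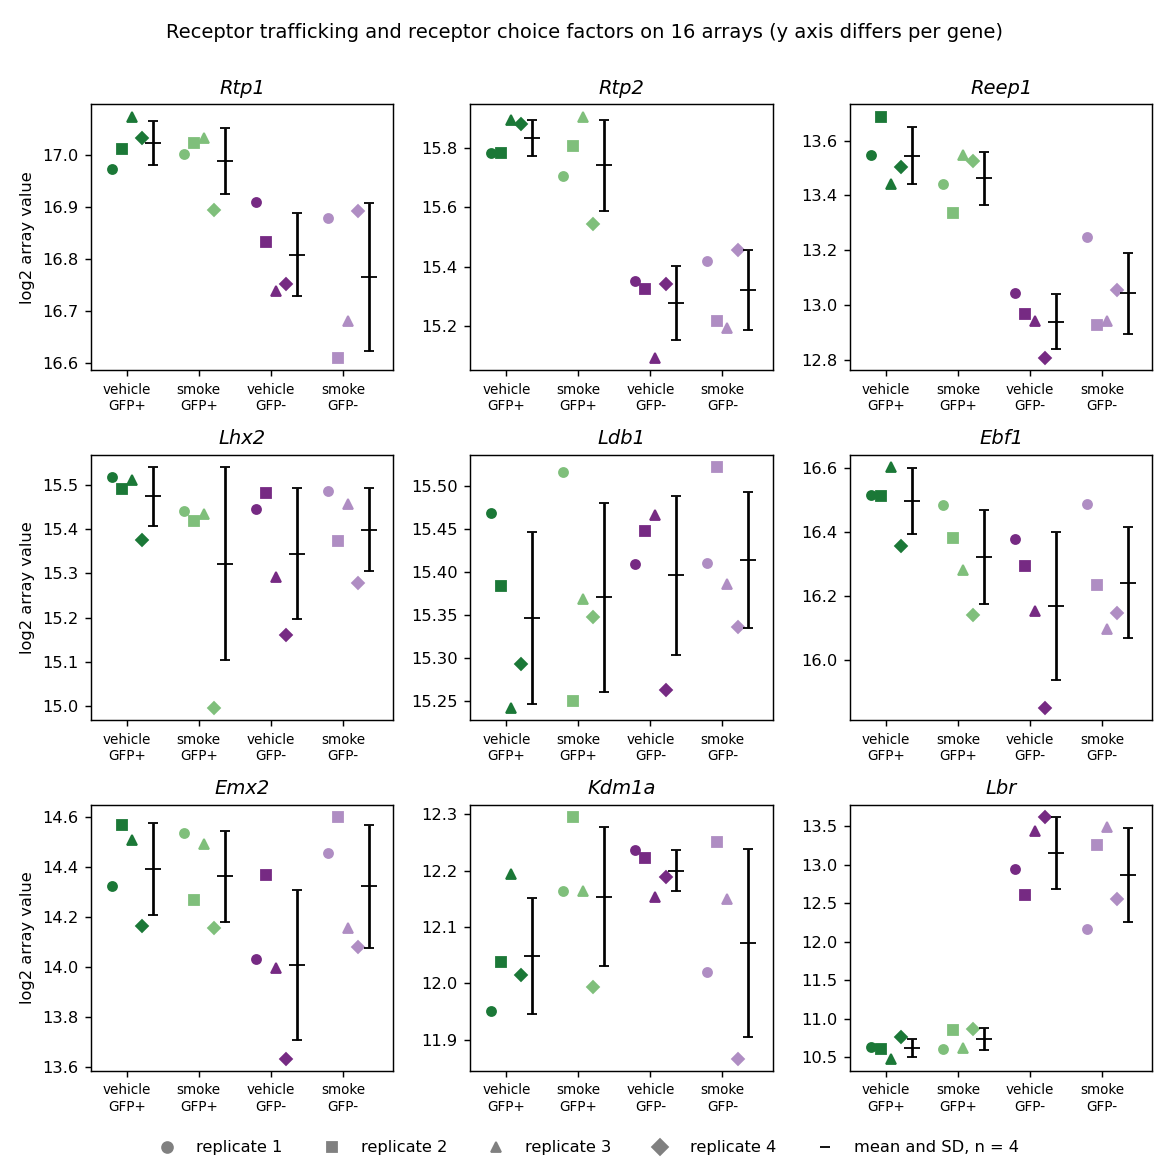
Log2 array value of each factor (y axis, own range per gene) in the 4 groups, with symbols for replicates 1 to 4 and bars for mean and SD (n = 4). The fractions stand apart for Rtp1, Rtp2, Reep1 and Lbr and overlap for Lhx2, Ldb1, Ebf1, Emx2 and Kdm1a.

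The order of the group means was vehicle GFP+, smoke GFP+, smoke GFP- and vehicle GFP- for Rtp2 and Reep1, and the same for Rtp1 with the GFP- groups exchanged. In each of the 3 genes the 2 GFP+ groups overlapped and the 2 GFP- groups overlapped, so only a step between fractions stood clear of the spread between pools. For Rtp1 even that step was not clear across exposures, since smoke GFP+ replicate 4 lay below vehicle GFP- replicate 1. The sort difference in smoke pools minus that in vehicle pools was 0.01 for Rtp1, -0.14 for Rtp2 and -0.19 for Reep1 (adjusted p of 0.923 and above).

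Relatives of the trafficking factors split in both directions. Of 9 listed genes 8 were measured, and in vehicle mice 2 were higher and 2 lower in GFP+ cells. The shares of all genes were 24.2% higher and 15.4% lower there, and 18.3% and 14.4% in smoke mice. Reep6, a relative of Reep1 known from photoreceptors, was higher by 0.56 (SE 0.16, adjusted p = 0.0113) and Ric8b, which promotes assembly and activity of the olfactory G protein, by 0.34 (SE 0.09, adjusted p = 0.00870). Reep5 was lower in GFP+ cells, at -2.78 (SE 0.27, adjusted p = 4.27e-07), and so was Reep4 at -1.57 (SE 0.24, adjusted p = 7.92e-05). Both encode shapers of endoplasmic reticulum membranes found in many cell types. In smoke mice 0 were higher and 3 lower, namely Reep5 at -2.78 (SE 0.27, adjusted p = 5.02e-07), Reep4 at -1.52 (SE 0.24, adjusted p = 1.30e-04) and Reep3 at -0.37 (SE 0.13, adjusted p = 0.0462). Ric8b lay at 17.3 to 17.7 in group means, above the scanner ceiling. Rtp3 and Reep2 were at or below the vomeronasal level in all 4 groups. The list median was -0.12 in vehicle and -0.08 in smoke mice, against 0.17 and 0.15 for all genes.

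The 5 transcription and chromatin factors of receptor choice other than Lbr did not pass between fractions in the fit without pools as blocks. Ebf1, an EBF family factor that binds receptor promoters and enhancers, measured 16.52, 16.51, 16.60 and 16.36 in vehicle GFP+ cells and 16.38, 16.29, 16.15 and 15.85 in vehicle GFP- cells. The GFP+ array exceeded the GFP- array in all 4 vehicle pools, while the groups overlapped by the values of GFP+ replicate 4 and GFP- replicate 1. The difference was 0.33 (SE 0.13, adjusted p = 0.0533). With the pool as a block it passed, at 0.33 (SE 0.10, adjusted p = 0.0293). It also passed without vehicle GFP+ replicate 4 (adjusted p = 0.0483) or vehicle GFP- replicate 1 (0.0319), with genes at low values left out (0.0367), with a trended, robust spread (0.0198) and with arrays centred on their medians (0.67, adjusted p = 4.42e-04). Without vehicle GFP- replicate 4 it was 0.22 (adjusted p = 0.182), and quantile normalization gave 0.27 (adjusted p = 0.103). Over all arrays left out in turn the adjusted p ran from 0.0319 to 0.182. In smoke mice the values were 16.48, 16.38, 16.28 and 16.14 in GFP+ cells and 16.49, 16.23, 16.10 and 16.15 in GFP- cells, a difference of 0.08 (SE 0.13, adjusted p = 0.656). Pools 2 and 3 were above 0, and pools 1 and 4 lay marginally below it.

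Emx2 followed the pattern of Ebf1. It measured 14.32, 14.56, 14.51 and 14.16 in vehicle GFP+ cells and 14.03, 14.37, 13.99 and 13.63 in vehicle GFP- cells. All 4 vehicle pools had the higher value in GFP+ cells, by 0.20 to 0.53. The difference of 0.38 did not pass in the fit without pools (SE 0.16, adjusted p = 0.0689) and passed with the pool as a block (SE 0.12, adjusted p = 0.0324). It also passed without vehicle GFP+ replicate 4 (adjusted p = 0.0484) or vehicle GFP- replicate 2 (0.0219), with a trended, robust spread (0.0427) and with arrays centred on their medians (0.73, adjusted p = 0.00105). Without vehicle GFP- replicate 4 it was 0.26 (adjusted p = 0.222), quantile normalization gave 0.33 (adjusted p = 0.110), and leaving out genes at low values gave an adjusted p of 0.0524. With Ebf1 and Emx2 the block brought the count in vehicle mice to 5 of 9, while in smoke mice it stayed at 3 of 9, with 7921 and 6465 of all 19505 genes called under the same block. In smoke mice Emx2 measured 14.54, 14.27, 14.49 and 14.16 in GFP+ cells and 14.45, 14.60, 14.15 and 14.08 in GFP- cells, a difference of 0.04 (SE 0.16, adjusted p = 0.865). The pools there ran from -0.33 in pool 2 to 0.34 in pool 3. The sort differences in smoke and vehicle pools differed from each other by -0.25 for Ebf1 (SE 0.18, adjusted p = 0.918) and by -0.34 for Emx2 (SE 0.23, adjusted p = 0.908), so a difference between the exposures was not shown.

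Lhx2, the LIM homeodomain factor of the receptor enhancers, measured 15.52, 15.49, 15.51 and 15.38 in vehicle GFP+ cells and 15.45, 15.48, 15.29 and 15.16 in vehicle GFP- cells. In smoke mice it measured 15.44, 15.42, 15.43 and 14.995 in GFP+ cells and 15.49, 15.37, 15.46 and 15.28 in GFP- cells. Smoke GFP+ replicate 4 stood below all 15 other arrays. The difference between fractions was 0.13 in vehicle (95% interval -0.12 to 0.38) and -0.08 in smoke mice (-0.32 to 0.17), and the second value became 0.03 without that array and 0.25 (adjusted p = 0.0690) with arrays centred on their medians. Under that centring the vehicle value was 0.47 and passed (adjusted p = 0.00207).

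Ldb1, the cofactor that joins LHX2-bound enhancers, had the smallest range of group means of the 9, at 0.07. Its 16 values lay between 15.24 and 15.52, with all 4 groups overlapping. The difference between fractions was -0.05 in vehicle (95% interval -0.25 to 0.15) and -0.04 in smoke mice (-0.25 to 0.16). These are values on the deposited scale: with each array centred on its median they became 0.29 (adjusted p = 0.0186) and 0.28 (adjusted p = 0.0256).

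Kdm1a, which removes repressive and activating methyl marks from histone H3, measured 11.95, 12.04, 12.19 and 12.01 in vehicle GFP+ cells and 12.24, 12.22, 12.15 and 12.19 in vehicle GFP- cells. The smoke values were 12.16, 12.29, 12.16 and 11.99 in GFP+ cells and 12.02, 12.25, 12.15 and 11.87 in GFP- cells. Only pool 3 of the vehicle pools had the higher value in GFP+ cells, whereas all 4 smoke pools had. The difference was -0.15 in vehicle (SE 0.10, adjusted p = 0.267) and 0.08 in smoke mice (SE 0.10, adjusted p = 0.569), and centring on array medians turned the vehicle value to 0.19 (adjusted p = 0.0933) and raised the smoke value to 0.40, which passed (adjusted p = 0.00273). The test of the difference between exposures gave 0.23 (SE 0.15, adjusted p = 0.908).

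**Figure D3:**
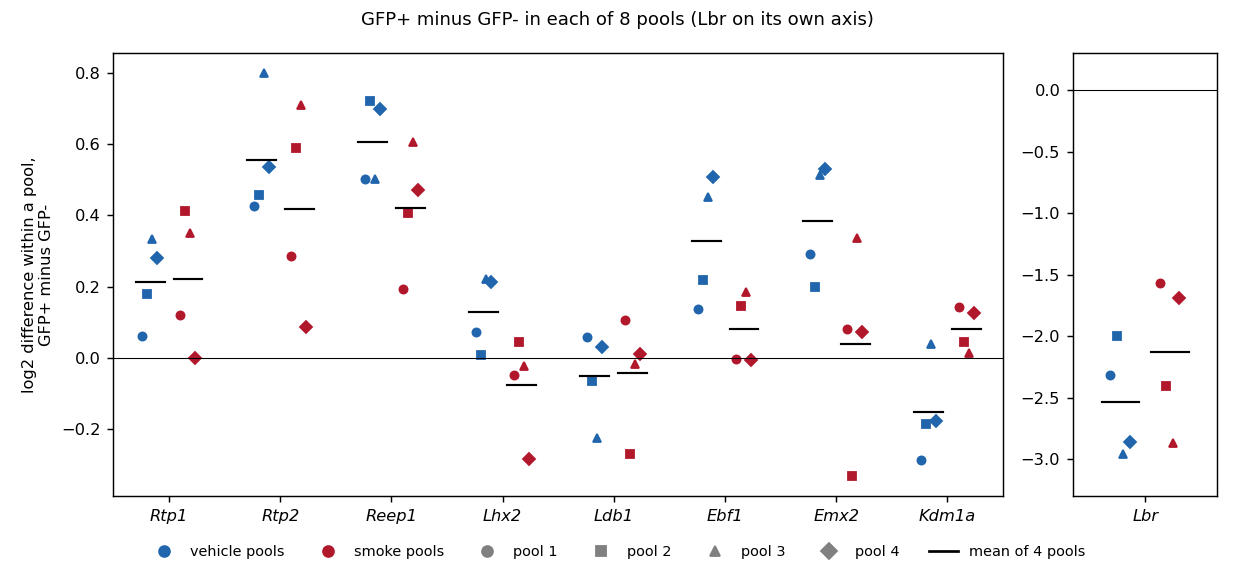
GFP+ minus GFP- log2 difference within each of the 8 pools (symbols), vehicle in blue and smoke in red, with the mean of 4 pools as a line and Lbr on its own axis. Rtp1, Rtp2, Reep1 and Lbr have all 8 pools on the same side of 0, with Rtp1 at 0.001 in smoke pool 4. Lhx2, Ebf1 and Emx2 have all 4 vehicle pools above 0, and Kdm1a has all 4 smoke pools above 0.

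The group means of these 5 genes lay close together, and neighbouring groups in their order overlapped. Vehicle GFP+ was highest for Lhx2, Ebf1 and Emx2, whereas it was lowest for Ldb1 and Kdm1a. Vehicle GFP- was lowest for Ebf1 and Emx2 and highest for Kdm1a.

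Across the replicates, several choice factors were low on the arrays numbered 4. Lhx2 and Emx2 had their lowest value in replicate 4 of all 4 groups and Ebf1 in 3 of 4. Among all genes, replicate 4 was lowest in all 4 groups for 456 (2.34%) and in 3 or more for 2158 (11.1%), against 0.364% to 0.6% and 5.07% to 5.99% for the other numbers. The list of 13 other choice and neuron transcription factors had its lowest mean in replicate 4 of every group as well. Replicate numbers mark separate pools in smoke and vehicle mice, and the labels do not say what same-numbered pools share. In smoke GFP+ cells replicate 4 held the lowest value for 6 of the 9 factors, against 30.0% of all genes. That array also had the highest sustentacular mean of the GFP+ arrays, 12.46, and the lowest mature neuron mean of its group, 15.83, and the part of these in the low values was not tested.

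**Figure D4:**
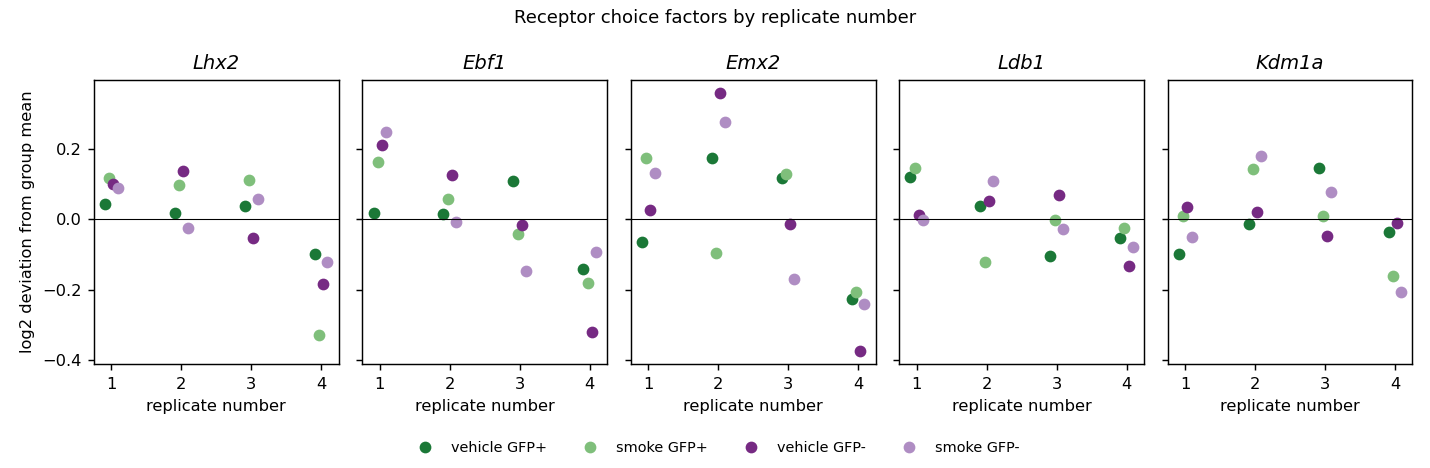
Deviation of Lhx2, Ebf1, Emx2, Ldb1 and Kdm1a from the group mean (y axis, log2) by replicate number (x axis), with a colour for each group. The 4 points of replicate 4 lie lowest for Lhx2 and Emx2.

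Among homologues of the choice factors, 8 of 9 listed genes were measured. In vehicle mice 1 was higher and 1 lower in GFP+ cells, against 24.2% and 15.4% of all genes. In smoke mice 0 were higher and 1 lower, against 18.3% and 14.4%. Ebf2, an olfactory relative of Ebf1, was higher in vehicle GFP+ cells by 0.38 (SE 0.13, adjusted p = 0.0336), with 0.16 in smoke mice (SE 0.13, adjusted p = 0.384). Kdm1b, the other LSD-type demethylase, was lower in GFP+ cells, at -0.98 in vehicle (SE 0.27, adjusted p = 0.00791) and -0.98 in smoke mice (SE 0.27, adjusted p = 0.0102). The Kdm1b mean of smoke GFP+ cells was at the vomeronasal level. Emx1, Lhx1 and Lhx9 were at or below the vomeronasal level in all 4 groups. The list median was 0.21 in vehicle and 0.12 in smoke mice.

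Of 16 other transcription and chromatin factors of receptor choice and neurons, 13 were measured. The shares of all genes called were 24.2% higher and 15.4% lower in vehicle mice, and 18.3% and 14.4% in smoke mice. In vehicle mice 2 were higher in GFP+ cells, the homeobox gene Uncx (0.58, SE 0.14, adjusted p = 0.00420) and Zfp423 (0.52, SE 0.16, adjusted p = 0.0164), whose zinc finger protein binds EBF proteins. In smoke mice only Dlx5, a homeobox gene of olfactory development, passed, at -0.61 (SE 0.20, adjusted p = 0.0263). The list median was 0.10 in vehicle and -0.03 in smoke mice.

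Among 9 partners of KDM1A and genes of the receptor feedback, all measured, 3 were higher and 3 lower in vehicle GFP+ cells. The shares of all genes were 24.2% and 15.4%. Adcy3, the cyclase of odour transduction whose expression follows a stable receptor choice, was higher by 0.43 in vehicle pools (SE 0.09, adjusted p = 0.00113), and by 0.31 in the smoke pools (SE 0.09, adjusted p = 0.0146). Atf5, the transcription factor translated in response to receptor expression, was higher by 0.43 in vehicle mice (SE 0.11, adjusted p = 0.00451), with 0.17 in smoke mice (SE 0.11, adjusted p = 0.229). The group means of Adcy3 and all but the vehicle GFP- mean of Atf5 were above the scanner ceiling. Of the corepressors that hold KDM1A, Rcor3 was higher in vehicle GFP+ cells by 0.44 (SE 0.14, adjusted p = 0.0210), while Rcor1 at -0.79 (SE 0.16, adjusted p = 0.0010) and Rcor2 at -1.44 (SE 0.31, adjusted p = 0.00179) were lower in smoke GFP+ cells. Rcor1 and Rcor2 were the remaining genes that passed as lower in vehicle mice. The deacetylase gene Hdac2 was lower in GFP+ cells of both exposures, at -0.64 (SE 0.12, adjusted p = 6.32e-04) and -0.44 (SE 0.12, adjusted p = 0.0119). The Rcor2 mean of GFP+ cells was at or below the vomeronasal level, so its size is not a fold of expression.

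Lbr was the factor with the widest separation. It measured 10.63, 10.60, 10.48 and 10.76 in vehicle GFP+ cells and 10.60, 10.85, 10.62 and 10.87 in smoke GFP+ cells. In GFP- cells it measured 12.95, 12.60, 13.44 and 13.62 in vehicle and 12.17, 13.26, 13.49 and 12.55 in smoke mice. The lowest GFP- array stood well above the highest GFP+ array, and the GFP- values were spread more widely, with SDs of 0.46 and 0.61 against 0.11 and 0.14. Lbr was lower in GFP+ cells by 5.79-fold in vehicle mice (log2 difference -2.53, SE 0.25, n = 4, adjusted p = 4.94e-07). In smoke mice it was lower by 4.38-fold (log2 difference -2.13, SE 0.25, n = 4, adjusted p = 4.38e-06). A larger difference in either direction was found for 4.65% of all genes in vehicle and 5.59% in smoke mice. The order of group means was vehicle GFP-, smoke GFP-, smoke GFP+ and vehicle GFP+, and neighbours of the same fraction overlapped.

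Markers of leukocytes differed between the fractions in the same direction as Lbr. The 8 measured myeloid and other leukocyte markers of 9 listed had means of 13.2 to 14.8 on GFP- arrays and 7.75 to 8.55 on GFP+ arrays, and 8 of 8 were lower in GFP+ cells in both exposures (medians -5.85 and -5.59). All 8 stayed above the vomeronasal level in GFP+ cells. Of all genes 15.4% were called lower in vehicle and 14.4% in smoke mice, and these shares apply to the marker lists below. In vehicle GFP- replicates 1 to 4 their means were 13.89, 13.79, 14.31 and 14.77, and in smoke GFP- replicates 13.21, 14.21, 14.67 and 13.57. In both GFP- groups the arrays came in the same order by Lbr and by these markers, whereas in both GFP+ groups the orders differed. The 5 measured B lymphocyte markers of 7 listed had means of 9.20 to 10.8 on GFP- arrays and 4.99 to 5.74 on GFP+ arrays. All 5 were lower in GFP+ cells in both exposures and were at or below the vomeronasal level there. In both GFP- groups the order of arrays by the B lymphocyte markers differed from that by Lbr.

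Precursor and microvillar markers were lower in GFP+ cells as well, and immature neuron markers were mixed. Of 9 globose basal and progenitor markers 7 were measured, and 6 were lower in GFP+ cells in both exposures, with array means of 9.06 to 10.0 in GFP- and 7.00 to 7.38 in GFP+ cells. Mki67, a proliferation marker picked for its size, had means of 12.66 in vehicle GFP- and 6.56 in vehicle GFP+ cells. At or below the vomeronasal level were 4 of the 7 in vehicle GFP+ cells and 5, Mki67 included, in smoke GFP+ cells. The sizes of their differences are therefore uncertain. Of 10 immature neuron markers, 4 were lower in GFP+ cells in both exposures, including Gap43, the growth cone protein gene, at -2.11 in vehicle mice (adjusted p = 1.05e-08). In vehicle mice 2 others were higher, Dcx by 0.51 (adjusted p = 0.00337) and Ncam1 by 0.39 (adjusted p = 0.0387), and in smoke mice 0 were. All 8 microvillar cell and ionocyte markers were lower in GFP+ cells in both exposures (medians -3.38 and -3.12), with group means of 9.81 to 9.96 in GFP- and 6.75 to 6.95 in GFP+ cells. Of these, 3 (Ascl3, Chat and Il25) were at or below the vomeronasal level in GFP+ cells. What leukocytes, precursors, microvillar cells and immature neurons contributed to the level of Lbr in GFP- cells was not tested.

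**Figure D5:**
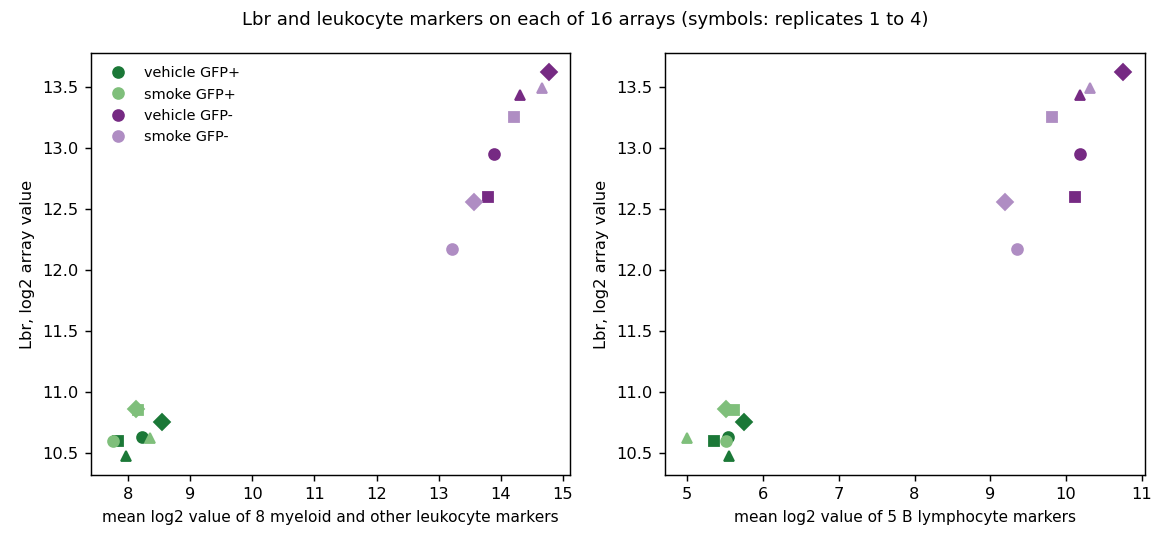
Lbr (y axis, log2 array value) on each of 16 arrays against the mean log2 value of 8 myeloid and other leukocyte markers (left) and 5 B lymphocyte markers (right), coloured by group. GFP+ arrays lie between 7.75 and 8.55 on the left axis and GFP- arrays between 13.2 and 14.8.

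Heterochromatin and nuclear envelope genes were examined beside Lbr. Of 15 listed genes 14 were measured, and in vehicle mice 2 were higher and 3 lower in GFP+ cells. The shares of all genes were 24.2% and 15.4% there, and 18.3% and 14.4% in smoke mice. Smchd1, a chromatin protein of X inactivation and of silenced gene clusters, was lower, at -1.68 (SE 0.15, adjusted p = 1.10e-07). Lmnb1, the lamin B1 gene and so a binding partner of LBR, differed by -0.76 (SE 0.16, adjusted p = 0.00111), and Cbx5, the gene of the LBR-binding heterochromatin protein HP1 alpha, by -0.55 (SE 0.12, adjusted p = 0.00180). Suv39h2, a histone H3 methyltransferase gene, was higher by 0.77 (SE 0.16, adjusted p = 0.00122), and Lmnb2, for lamin B2, by 0.56 (SE 0.17, adjusted p = 0.0142), which is named here to complete the count, after its value was seen. In smoke mice 0 were higher and 4 were lower: Smchd1 (-1.48, SE 0.15, adjusted p = 5.97e-07), Cbx5 (-0.68, SE 0.12, adjusted p = 3.43e-04), Ehmt1 (-0.45, SE 0.13, adjusted p = 0.0113) and Lmnb1 (-0.44, SE 0.16, adjusted p = 0.0406). The list median was -0.07 in vehicle and -0.01 in smoke mice.

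Smoke exposure changed the level of none of the 9 factors in GFP+ cells by the test. Of the members 0 of 9 were called, against 0.108% of all genes (21 of 19505), and 0 of 9 had an unadjusted p below 0.05 in limma, against 936 genes (4.8%). For all 9 the smoke and vehicle arrays overlapped, as in all but 2.99% of genes. The differences in smoke minus vehicle were -0.03 for Rtp1 (95% interval -0.23 to 0.17), -0.09 for Rtp2 (-0.32 to 0.13) and -0.08 for Reep1 (-0.30 to 0.14). For the choice factors they were -0.15 for Lhx2 (-0.40 to 0.09), 0.02 for Ldb1 (-0.18 to 0.23), -0.18 for Ebf1 (-0.45 to 0.10), -0.03 for Emx2 (-0.37 to 0.31), 0.10 for Kdm1a (-0.12 to 0.33) and 0.12 for Lbr (-0.41 to 0.65). The adjusted p was 0.999 for each. The fit shares 1 spread per gene over the 4 groups, so the Lbr interval is widened by its spread in GFP- cells. On GFP+ arrays alone, with the replicate number as a block, the Lbr SE was 0.10 (limma, adjusted p = 0.880). Without smoke GFP+ replicate 4 the Lhx2 difference was -0.04 (SE 0.11). The sort and smoke comparisons share arrays, so the values of a gene in them are not independent.

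In GFP- cells 0 of 9 were called against 0.128% of all genes (25), and 0 of 9 had an unadjusted p below 0.05 against 1115 genes (5.72%). Smoke and vehicle arrays overlapped for all 9, as in all but 2.73% of genes. The largest difference was that of Emx2, at 0.32 in smoke minus vehicle (SE 0.16, 95% interval -0.03 to 0.66, adjusted p = 0.876). Lbr differed by -0.28 (-0.82 to 0.25, adjusted p = 0.927). Of the myeloid markers 8 of 8 lay below 0, with a median of -0.25 and 0 called. Other lists had 0 genes above 0 and 0 called as well. These were the 5 B lymphocyte (median -0.65), 7 gland and respiratory (-0.52) and 6 horizontal basal cell markers (-0.27). Mature neuron markers lay above 0 in 10 of 10, with a median of 0.06 and 0 called. The part of any of these in the Lbr value was not tested. Kdm1a differed by -0.13 (-0.35 to 0.09) and Reep1 by 0.10 (-0.12 to 0.32). Rtp1, Rtp2, Lhx2, Ldb1 and Ebf1 lay between -0.04 and 0.07. For the difference of the smoke effects between fractions, 0 of 9 were called against 0.174% of all genes (34), with 0 of 9 and 1114 genes (5.71%) at an unadjusted p below 0.05, and the adjusted p values of the members ran from 0.908 to 0.998.

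The wider lists gave no call either. In both smoke comparisons 0 of the 8 trafficking relatives, 0 of the 8 homologues, 0 of the 13 other transcription factors, 0 of the 14 heterochromatin genes and 0 of the 9 partner and feedback genes passed in limma. The 13 other transcription factors had a median of 0.22 in GFP- cells, with 11 above 0, and of -0.13 in GFP+ cells, with 4 above 0. The all-gene medians were 0.01 and -0.0044. The genes with the smallest p in each list were as follows. Among trafficking relatives, Rtp3 (0.24) and Reep3 (-0.24) led in GFP+ cells, and Reep3 (-0.19) and Ric8b (0.14) in GFP- cells. Among homologues, Lhx9 (0.29) and Emx1 (-0.11) led in GFP+ cells, both at or below the vomeronasal level, and Ebf2 (0.16) and Ebf3 (0.16) in GFP- cells. Of the other transcription factors, Nfix (-0.29) and Uncx (-0.27) led in GFP+ cells, and Uncx (0.22) and Tshz1 (0.25) in GFP- cells. Rcor1 (-0.29) and Rcor2 (-0.38) led the partner and feedback genes in GFP+ cells, and Hdac2 (-0.20) and Atf5 (0.18) in GFP- cells. Of the heterochromatin genes, Cbx5 was at -0.24 in GFP+ cells and Cbx1, for another HP1 protein, at -0.28 in GFP- cells. Ehmt1, a histone methyltransferase gene, had -0.36 in GFP+ cells (SE 0.13, adjusted p = 0.855), and Setdb1, another, had -0.28 in GFP- cells (SE 0.10, adjusted p = 0.673).

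How the factors varied with one another was described by Pearson correlations over the 16 arrays after the group means were removed. Arrays of a pool are taken to share mice there. Rtp1 and Rtp2 correlated at 0.81. Lhx2, Ebf1 and Emx2 correlated with each other at 0.75 (Lhx2 and Ebf1), 0.73 (Ebf1 and Emx2) and 0.66 (Lhx2 and Emx2). Lbr ran against Rtp1 (-0.78), Ebf1 (-0.70) and Reep1 (-0.67). Its SDs were 0.46 and 0.61 in vehicle and smoke GFP- cells against 0.11 and 0.14 in GFP+ cells. The correlations with Lbr therefore rest mostly on the GFP- arrays. Reep1 and Rtp2 had the same order of groups but correlated at 0.15 within groups. Kdm1a and Ldb1 correlated at -0.03.

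The genes with the pattern most like each factor were taken as the 3 with the highest Pearson correlation over the 16 arrays, group differences included. For Rtp1 they were Cldn9 (0.95), Rwdd4a (0.95) and Slc49a4 (0.94), and for Rtp2 the odorant receptors Olfr152 (0.97) and Olfr1511 (0.96) and the kinase gene Mapk4 (0.96). Reep1 had Spon2 (0.97), Enox2 (0.97) and the receptor Olfr689 (0.96). Lhx2 had Crtc2 (0.93), Arf4 (0.93) and Prrc1 (0.92), Ebf1 had Anks1 (0.95), Nol4l (0.94) and Apbb2 (0.94), and Emx2 had the G protein gene Gnao1 (0.92), Cmip (0.91) and Mtss2 (0.91). Ldb1 had Fam193a (0.87), Srrm2 (0.81) and Oas1b (0.78). Kdm1a had Stac (0.77), Atp6v1g3 (0.77) and Fam47c (0.76), the lowest of the 9 sets. The means of Stac and Fam47c were below the vomeronasal level in all 4 groups, and those of Atp6v1g3 in all but vehicle GFP- cells. The likeness of Kdm1a is therefore to signal near background. The genes nearest Lbr were Rap1b (1.00), Adam8 (0.99), a protease gene of leukocytes, and Sat1 (0.99). Adam8 had means of 10.12 and 9.66 in vehicle and smoke GFP- cells and of 4.37 and 4.62 in GFP+ cells, the latter below the vomeronasal level. Olfr152 had means of 9.84 and 9.70 in vehicle and smoke GFP+ cells and of 7.19 and 7.68 in GFP- cells.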

How the data were processed

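Clariom S mouse arrays were hybridised with RNA of 16 sorted samples. The values used are the log2 values deposited by the authors, made with Affymetrix Expression Console per the submitters' processing notes. For the version, the summary algorithm, the background correction and the genome build, the sources used here give nothing. Over all probe sets, controls included, the sorted values of the arrays differed by at most 0.346 at any rank, although the medians over genes differed between the fractions. Values ran from 2.29 to 18.6, and 2620 (0.840%) lay above 16. Nothing was renormalized for the main results.

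Of 28846 probe sets, 19572 carried a gene symbol in the platform annotation and 9274 carried none there. The probe set with the highest mean over 16 arrays stood for each gene, which left 19505 genes. limma 3.58.1 in R 4.3.3 (lmFit, eBayes) was fitted to 4 group means on all 16 arrays, without blocks, with 5 contrasts: smoke against vehicle in each fraction, GFP+ against GFP- in each exposure, and the difference of the smoke effects. The p-values were two-sided, adjusted by Benjamini-Hochberg over all genes and called at 0.05. The fit was tested on simulated data.

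Both fractions of a number were taken to come from the same 3 mice. This was inferred, since 24 mice in groups of 3 make 8 pools for 16 arrays. Residuals of the paired arrays correlated at 0.22, 0.091, 0.093 and 0.13 in smoke and 0.21, 0.082, 0.045 and 0.20 in vehicle pools. Same-numbered smoke and vehicle pools are different mice, and the labels name nothing else that they share.

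The members, the gene lists and the tests were chosen with earlier results of these data known. Named were all 9 members, up to 4 called genes per list and comparison (otherwise the 2 with the smallest p), and the 3 genes most like each member. Alternatives were other scalings, a filter on low genes, other variance models, fewer arrays, blocks and probe set means. Promoters came from RefSeq. Plots were made in matplotlib 3.10.9 under Python 3.11.15.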

Additional observations from a re-analysis of the deposited data

Results flagged for a closer look

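In 2 of the 36 sets of 4 arrays (9 factors in 4 groups) a single array stood far from the other 3, by the gap to its nearest neighbour as a share of the whole range, judged against 0.829. Chance gives such a gap in about 1 in 20 sets. Lhx2 in smoke GFP+ replicate 4 was 14.995 against 15.42 to 15.44 in the others, a share of 0.952. Rtp2 in vehicle GFP- replicate 3 was 15.09 against 15.33 to 15.35, a share of 0.892. Both stood low.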

How the results depend on the processing

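With the pool as a replicate block, 5 of 9 factors passed between fractions in vehicle mice against 3 without it, with 7921 of all genes called against 7726. With the replicate number as a block for smoke against vehicle, where same-numbered arrays correlated at 0.14, 0.077, 0.15 and 0.20 in GFP+ and at 0.18, -0.071, 0.10 and -0.084 in GFP- cells, 15 genes passed in GFP+ cells against 21. Then 2 genes passed for smoke in GFP- cells against 25, and the block changed no other call on the 9 factors. Centring each array on its median gave 8 of 9 (15086 genes) in vehicle and 7 of 9 (14268 genes) in smoke mice, and turned Ldb1 to 0.29 and 0.28; this scaling moves the median of all genes to 0.51 and 0.47. In vehicle mice 5 factors passed with the low filter (7298 of 13493 genes) and 6 with a trended, robust spread (7818 genes). The GFP- arrays alone gave 8 genes for smoke. Without smoke pools 2 and 4, all-gene counts were 5 (smoke, GFP+ cells), 7 (smoke, GFP- cells), 9 (difference of smoke effects) and 3579 (sort, smoke mice), on fewer arrays. With each array left out in turn, 3 to 5 factors passed in vehicle and 3 in smoke mice, with the highest adjusted p at 0.0270 for Rtp2, 0.0202 for Reep1 and 3.25e-05 for Lbr. The smoke comparisons gave 0 each time, and their all-gene counts ran from 14 to 27 in GFP+ cells, 13 to 28 in GFP- cells (13 and 14 when vehicle GFP- replicate 1 or 2 was left out, 16 when smoke GFP- replicate 2 was) and 25 to 37 for the difference. With values above 16 set to 16, a setting chosen after seeing the data, Ebf1 had 0.04 in vehicle mice, and Rtp1, above 16 on all arrays, could give no difference by construction. Of 819 single-factor values under alternatives, 796 kept their side of the threshold, 20 gained a call and 1 lost it, each in its former direction. The 2 others, both of Ldb1, changed sign and gained a call. Values that changed sign without a call in either fit, such as Kdm1a in vehicle mice with centred arrays, are counted among the 796. So are the values from probe set means, which repeat the main differences because each factor has a single probe set. The Rtp1 values set to 16 are counted there too. Both were fixed or nearly fixed in advance, so the 796 are not all tests of stability. Causes of these changes were not tested. The number of arrays and the signal above the scanner ceiling limit the precision.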
